A study of Mus musculus with 9 samples.

Results

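AP-1 is a group of transcription factors that act as pairs of basic leucine zipper (bZIP) proteins, and its transcripts were followed here in alveolar macrophages with and without Suz12. The members were the 10 genes Fos, Fosb, Fosl1, Fosl2, Jun, Junb, Jund, Atf3, Maff and Mafk, taken by symbol through their Entrez identifiers from the 27179 genes of the deposited count table. All 10 were found. FOS proteins do not pair with each other and bind DNA together with a JUN protein, whereas JUN proteins also pair among themselves. ATF3 is a stress-induced bZIP factor that pairs with JUN proteins and restrains inflammatory genes in macrophages, and the small MAF proteins MAFF and MAFK carry no activation domain of their own and pair with partners such as NRF2 and BACH1. Many of these genes are immediate early genes, switched on through MAP kinases within minutes of a stimulus, and their mRNAs are short-lived. In macrophages AP-1 proteins bind enhancers together with lineage factors such as PU.1.

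The cells were alveolar macrophages, the resident phagocytes of the airspaces, purified by flow cytometric sorting from the lungs of mice aged 1 week. There were 5 libraries from mice with a conditional knockout of Suz12 (Suz12 cKO) and 4 from wild type mice, all on the C57BL/6 background. SUZ12 belongs to the Polycomb complex PRC2, a histone H3 methyltransferase that silences developmental genes. No source used here gives the Cre driver, the deleted part of Suz12, the sorting gate, the sex of the mice or whether animals were pooled. The series title calls the macrophages foetal-derived. The series text calls the libraries of a group biological replicates. Polyadenylated RNA was sequenced in bulk, so fewer cells of a type and less RNA per cell cannot be told apart.

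Total counts per library were 18584016 to 45606001 in Suz12 cKO and 13814799 to 25284693 in wild type. Suz12 stood at 16 ± 4.11 CPM (counts relative to library size, scaled by the TMM method) in Suz12 cKO (SD, n = 5) and at 66.6 ± 10.7 CPM in wild type (SD, n = 4). By edgeR's quasi-likelihood test its log2 fold change was -2.06, with an SE of 0.18 and an adjusted p of 1.69e-05. The defining alveolar macrophage transcripts Siglecf (372 to 502 CPM in Suz12 cKO and 411 to 494 CPM in wild type) and Pparg (255 to 286 CPM in Suz12 cKO and 223 to 245 CPM in wild type) were present in every library. Of the 15 alveolar macrophage markers tested by edgeR, Marco (log2 fold change 0.54) and Lpl (0.60) were higher in Suz12 cKO, and Car4 (-0.96), Cd9 (-0.86), Krt79 (-0.53) and Fabp5 (-0.43) were lower. That was 40% called, against 19.9% of all tested genes. Summed over 8 epithelial markers the level was 14.5 to 59.7 CPM in Suz12 cKO and 14.9 to 33.6 CPM in wild type, and over 8 lymphocyte markers 6.22 to 12 CPM in Suz12 cKO and 4.25 to 18.8 CPM in wild type. Over 6 neutrophil markers it was 70.2 to 186 CPM in Suz12 cKO, highest in library 3, and 67.2 to 86.2 CPM in wild type. Of the 5 neutrophil markers tested 1 was called higher, or 20% against 8.97% of all tested genes. Over 7 endothelial and fibroblast markers it was 4.25 to 7.33 CPM in Suz12 cKO and 0 to 5.49 CPM in wild type. The shortest 10% of tested genes took 8.5 ± 0.514% of counts in Suz12 cKO and 11.2 ± 0.92% in wild type (exact permutation p = 0.0159, two-sided, the smallest that 126 splits allow). When every library was thinned to 13814799 counts, Suz12 cKO libraries held 15274 ± 383 detected genes and wild type libraries 12975 ± 398 (exact permutation p = 0.0159). The share of length and of library complexity in the results below was not tested, apart from the length correction and the equal-depth fit reported with them. Wild type library 3 was the shallowest and lay apart from the other libraries on the first principal component (104.1, against 23.8 to 37.8 for the other wild type libraries and -44.8 to -34.0 for the Suz12 cKO libraries).

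Of the 10 members 5 were higher in Suz12 cKO and none was lower. Of these Fosl1 was counted in Suz12 cKO alone and passed the filter on low counts only through that group, and of the 9 members detected in wild type 4 were higher. With 1 library left out, the count over all 10 was 6 without wild type library 1 or 3 and 4 without any other library. Those that rose were Atf3, Fosl2, Fosl1, Maff and Junb, and the remaining 5, Fosb, Mafk, Jun, Fos and Jund, did not pass the threshold of an adjusted p of 0.05 by edgeR. Among all 12840 tested genes 19.9% were called, 8.97% as higher and 11% as lower. Of the 2304 tested genes between 1705 and 5864 bases long, the lengths of the members, whose log2 CPM averaged 5.87 or more, the lowest among the members detected in wild type, 14.6% were called higher. The median log2 fold change was 0.53 over the members, also with Fosl1 at its lower bound, 0.41 without Fosl1 and 0.04 over all tested genes. No member was lower at an unadjusted p under 0.05 either, and none was called lower by DESeq2 or voom, which called 6 and 5 members higher. The groups did not overlap for 5 members, Atf3, Fosl1, Fosl2, Fosb and Maff, all higher in Suz12 cKO. Over all tested genes 20.8% did not overlap, 10.9% being higher and 9.87% lower in Suz12 cKO.

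**Figure D1:**
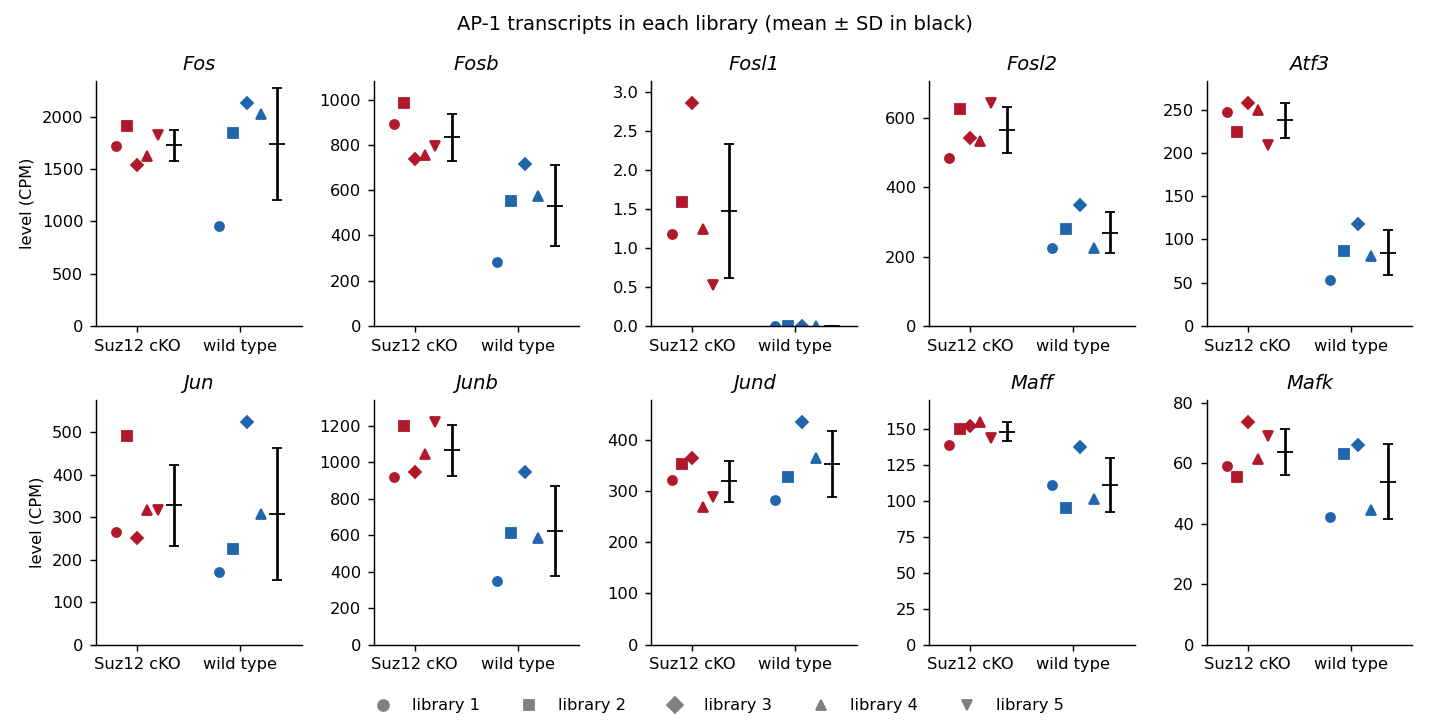
Level of each AP-1 transcript (vertical axis, CPM, from 0) in the 5 Suz12 cKO libraries (red) and the 4 wild type libraries (blue), with marker shapes for library numbers and the mean ± SD in black. Atf3, Fosl2, Fosb, Maff and Fosl1 separate the groups, whereas Fos, Jun and Jund overlap and wild type library 1 is low for Fos at 953 CPM.

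To set levels of different genes side by side, CPM were divided by the deposited gene length in kilobases (CPM per kb). Fos stood highest in every library, at 825 ± 71.7 CPM per kb in Suz12 cKO and 831 ± 257 CPM per kb in wild type, and ranked 49 in Suz12 cKO and 67 in wild type among the 12840 tested genes. Junb came next in all 9 libraries, at 579 ± 75.8 CPM per kb in Suz12 cKO and 338 ± 134 CPM per kb in wild type, and Fosb followed at 220.4 ± 27.2 CPM per kb in Suz12 cKO and 141 ± 47.5 CPM per kb in wild type, except in wild type library 1, where Jund stood above it. Jund, Jun, Atf3, Fosl2 and Maff formed a middle group whose order changed from library to library. In Suz12 cKO their means lay between 82.3 CPM per kb for Maff and 120.0 CPM per kb for Atf3, and in wild type between 42.9 CPM per kb for Atf3 and 123 CPM per kb for Jund. In the order of all tested genes Atf3 stood at 661 in Suz12 cKO and at 2176 in wild type, and Fosl2 at 871 in Suz12 cKO and at 2043 in wild type. Mafk was ninth in every library, at 22.5 ± 2.66 CPM per kb in Suz12 cKO and 19.1 ± 4.39 CPM per kb in wild type, and Fosl1 was last.

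The sequences before the start sites of several members are shown because immediate early genes are known to be switched on from elements close to their starts. Each line gives the 150 bases before a start site in RefSeq (GRCm38.p6), for 4 members that rose and, after them, for the abundant Fos and Jun, with matches to TGACG or its complement CGTCA, the core of the cyclic AMP response element, and to TGACGTCA, TGACATCA or TGATGTCA in capitals (Fosl2 has none in its 150 bases).
Atf3, chr1:191183334-191183483, minus strand: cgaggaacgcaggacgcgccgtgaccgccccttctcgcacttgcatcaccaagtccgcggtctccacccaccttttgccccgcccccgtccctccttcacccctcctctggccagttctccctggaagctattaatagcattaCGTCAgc
Fosl2, chr5:32136322-32136471, plus strand: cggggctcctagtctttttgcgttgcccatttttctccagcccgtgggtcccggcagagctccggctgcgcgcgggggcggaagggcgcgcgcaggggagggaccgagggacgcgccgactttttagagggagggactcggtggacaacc
Junb, chr8:84978749-84978898, minus strand: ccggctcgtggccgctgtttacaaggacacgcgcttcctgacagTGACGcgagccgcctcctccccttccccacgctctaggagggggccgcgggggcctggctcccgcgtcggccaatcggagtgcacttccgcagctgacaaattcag
Maff, the middle of its annotated starts, chr15:79347370-79347519, plus strand: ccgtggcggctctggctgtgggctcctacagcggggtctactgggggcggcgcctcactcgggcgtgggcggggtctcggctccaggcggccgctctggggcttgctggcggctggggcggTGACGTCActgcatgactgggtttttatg
Fos, chr12:85473740-85473889, plus strand: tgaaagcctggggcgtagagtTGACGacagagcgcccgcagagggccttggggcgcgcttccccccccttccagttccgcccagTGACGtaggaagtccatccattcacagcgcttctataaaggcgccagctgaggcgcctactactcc
Jun, chr4:95052223-95052372, minus strand: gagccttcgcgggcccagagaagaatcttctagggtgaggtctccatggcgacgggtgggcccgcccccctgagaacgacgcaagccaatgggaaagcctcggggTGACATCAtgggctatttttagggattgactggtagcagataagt
Of the 10 members 9 had windows in the RefSeq table, 11 in all because Maff has 3, each running from 250 bases before to 50 bases after the start. The AP-1 site TGACTCA or its complement TGAGTCA was in none of the 11 windows and in 5.2% of all 32851 windows of this length. The full cyclic AMP response element TGACGTCA was in 1 window, of Maff, and in 1.79% of all windows. TGACATCA or its complement TGATGTCA was in 2 windows, of Jun and Maff, and in 3.62% of all. The core TGACG or CGTCA, which the full element contains, was in 7 of the 11 windows, of Atf3, Fos, Fosb, Junb, Maff and Mafk, and in 20.8% of all. No window of a member held a CArG box, the site of serum response factor, which was in 1.63% of all windows. Sites more than 250 bases before a start lay outside the windows and were not searched, so members may have such a box farther upstream. These are matches of letters on both strands within these windows and say nothing of binding. The windows had a median GC content of 61.3%, against 52.7% for all windows, and a median of 21 CpG dinucleotides against 7. Of the 11 windows 9 exceeded the median of all windows in both. The core and the full cyclic AMP response element each contain a CpG, so all windows are not a like-for-like background for them. Whether the core was more frequent than in windows of similar CpG content was not tested. Jun, Junb and Jund are genes of 1 exon in GENCODE vM21, and the other members have 3 to 5.

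Among the FOS family Fosl2 and Fosl1 rose, while Fos itself did not differ beyond the spread between libraries. Fosl2 (Entrez Gene 14284, chromosome 5, positions 32136472 to 32157840 of GRCm38), a FOS protein without the transactivation domain of FOS and FOSB, had 484, 628, 543, 535 and 643 CPM in the Suz12 cKO libraries and 224, 281, 348 and 226 CPM in the wild type libraries. Every Suz12 cKO library lay above every wild type library. The log2 fold change was 1.07 (SE 0.13, adjusted p = 0.000154 by edgeR), and 0.92 after correction for gene length. Fosl1 (Entrez Gene 14283, chromosome 19, positions 5447698 to 5455938), its closest relative, had 56, 59, 107, 24 and 25 counts in the Suz12 cKO libraries, or 1.18, 1.59, 2.86, 1.24 and 0.523 CPM, and 0 counts in all 4 wild type libraries. Against a floor of 3 counts over the whole wild type group it was at least 41-fold higher in Suz12 cKO, given as a description. At the Suz12 cKO mean of 1.48 CPM a wild type library would have held between 18.6 and 36.9 counts. The bound covers counting error only, Fosl1 passed the filter on low counts only through the Suz12 cKO libraries, and its span overlaps that of Ccdc85b, from which reads in the overlap cannot be told apart without the strand setting.

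Fosb (Entrez Gene 14282, chromosome 7, positions 19302696 to 19310118), like Fos an immediate early gene with a transactivation domain, had 890.0, 983, 738, 756 and 794 CPM in Suz12 cKO and 284, 552, 714 and 575 CPM in wild type. The groups did not overlap, but wild type library 3 came close to the lowest Suz12 cKO library. The log2 fold change was 0.65 (SE 0.22) and missed the threshold by edgeR (adjusted p = 0.0613). It passed without wild type library 1 (0.45, adjusted p = 0.0242) and without wild type library 3 (0.83, adjusted p = 0.0179), and by DESeq2 (0.64, adjusted p = 0.00459). Fos (Entrez Gene 14281, chromosome 12, positions 85473890 to 85477274), the founding member, had 1722, 1916, 1542, 1625 and 1825 CPM in Suz12 cKO and 953, 1845, 2129 and 2029.6 CPM in wild type. Of the wild type libraries, 2, 3 and 4 lay above at least 4 of the 5 Suz12 cKO libraries, and library 1 lay below all of them. The log2 fold change was -0.01 (SE 0.19, adjusted p = 0.977 by edgeR), with a 95% interval of -0.39 to 0.37. Without wild type library 1 it was -0.20 (adjusted p = 0.159) and without wild type library 3 it was 0.11 (adjusted p = 0.738).

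The make-up of the FOS family differed between the groups, whereas the level of Fos was not called different. On the CPM per kb scale Fos gave 72.1, 71.3, 71.8, 72.7 and 73.1% of the family in Suz12 cKO and 80.1, 81.9, 80.4 and 83.6% in wild type. Wild type libraries 1 and 3, with the lowest and the highest level of Fos, had Fos shares next to each other. Fosb made up 17.6 to 20.6% in Suz12 cKO and 13.1 to 14.9% in wild type, and Fosl2 7.23 to 9.19% in Suz12 cKO and 3.31 to 6.71% in wild type. None of these ranges overlapped. The shares were examined after the values of the members were seen and were not tested, and each is bound to the others because they add up to the whole.

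**Figure D2:**
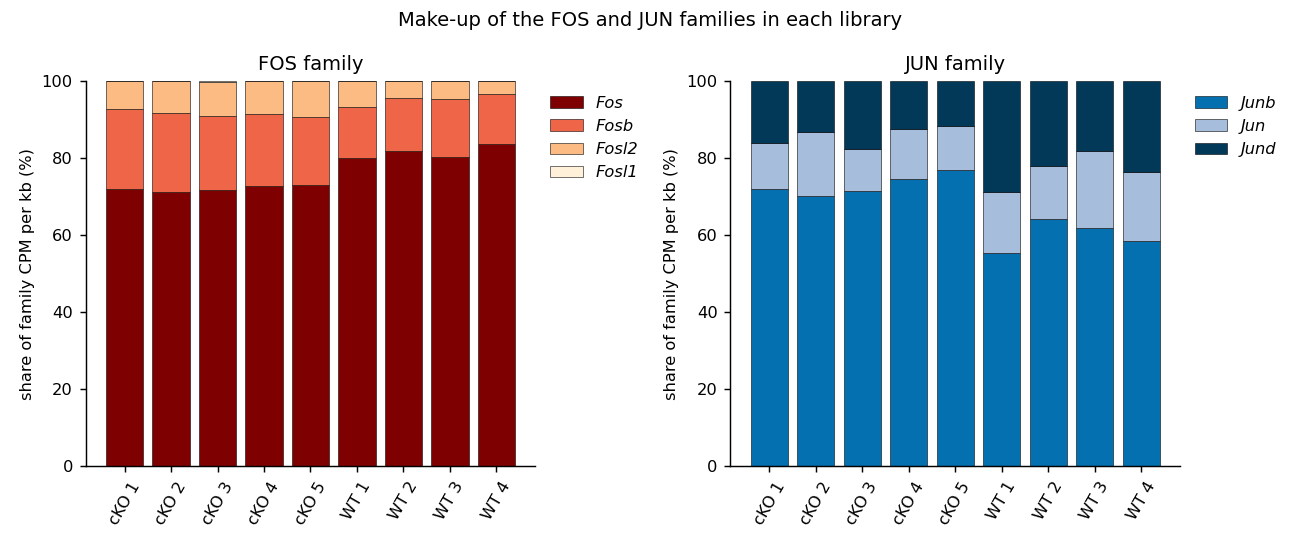
Share of the FOS family (left) and of the JUN family (right) taken by each member in each library, in percent of the summed CPM per kb, with the 5 Suz12 cKO libraries left of the 4 wild type libraries. Fos takes 71.3 to 73.1% in Suz12 cKO and 80.1 to 83.6% in wild type, and Junb 70.2 to 76.9% in Suz12 cKO and 55.4 to 64.1% in wild type.

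Of the JUN family Junb was called higher. Junb (Entrez Gene 16477, chromosome 8, positions 84976909 to 84978748), an immediate early JUN protein with weaker transactivation than JUN, had 917, 1197, 948, 1046 and 1221 CPM in Suz12 cKO and 348, 609, 945 and 582 CPM in wild type. Wild type library 3 lay above the lowest Suz12 cKO library and the other wild type libraries lay below all of them. The log2 fold change was 0.78 (SE 0.24, adjusted p = 0.0477 by edgeR). The call was narrow. Without Suz12 cKO library 1, 2, 3, 4 or 5, or without wild type library 2 or 4, the adjusted p was 0.0674 to 0.11, and after correction for gene length it was 0.0625, with a log2 fold change of 0.84. Without wild type library 3 the log2 fold change was 1.07 (adjusted p = 0.00192).

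Jun (Entrez Gene 16476, chromosome 4, positions 95049036 to 95052222), the strongest activator of the family, had 266, 489.7, 251, 316 and 316 CPM in Suz12 cKO and 171, 226, 524 and 308 CPM in wild type. The groups overlapped over nearly their whole range, and the log2 fold change was 0.10 (SE 0.34, adjusted p = 0.883 by edgeR, interval -0.58 to 0.77). Among the members detected in wild type it was the most variable in both groups, with a coefficient of variation of 29% in Suz12 cKO and 50.5% in wild type. Jund (Entrez Gene 16478, chromosome 8, positions 70697739 to 70700616), the JUN protein that is present in unstimulated cells, had 321, 353, 365, 270.2 and 289 CPM in Suz12 cKO and 283, 329, 436 and 366 CPM in wild type, also overlapping. Its log2 fold change was -0.15 (SE 0.12, adjusted p = 0.456 by edgeR, interval -0.39 to 0.10). On the CPM per kb scale Junb took 71.9, 70.2, 71.5, 74.6 and 76.9% of the JUN family in Suz12 cKO and 55.4, 64.1, 61.9 and 58.6% in wild type. Jund took 11.6 to 17.6% in Suz12 cKO and 18.3 to 28.9% in wild type, and Jun 10.9 to 16.6% in Suz12 cKO and 13.7 to 19.8% in wild type. The ranges of Junb and of Jund did not overlap and those of Jun did, again as a description with no test. The summed CPM per kb of the FOS family was 1.38 to 1.65 times that of the JUN family in Suz12 cKO and 1.53 to 2.15 times in wild type, which overlapped.

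Atf3 gave the largest fold change among the members detected in both groups. Atf3 (Entrez Gene 11910, chromosome 1, positions 191170296 to 191183333) had 247, 224, 257, 249 and 209 CPM in Suz12 cKO and 53.4, 86.9, 118 and 80.9 CPM in wild type. The lowest Suz12 cKO library stood well above the highest wild type library, and the spread was small in Suz12 cKO, with a coefficient of variation of 8.53% against 31.2% in wild type. The log2 fold change was 1.49 (SE 0.17, adjusted p = 0.000129 by edgeR), between 1.33 and 1.70 with each library left out in turn, and 1.52 after correction for gene length.

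Of the small MAF genes Maff rose slightly. Maff (Entrez Gene 17133, chromosome 15, positions 79346621 to 79359078) had 139, 150.5, 152, 155 and 144 CPM in Suz12 cKO and 111, 95, 138 and 101 CPM in wild type. The groups did not overlap, though the highest wild type library, library 3, was within a few CPM of the lowest Suz12 cKO library. The log2 fold change was 0.41 (SE 0.10, adjusted p = 0.0118 by edgeR) and 0.48 after correction for gene length. Mafk (Entrez Gene 17135, chromosome 5, positions 139791536 to 139802653) had 59, 55.3, 73.6, 61.3 and 69.1 CPM in Suz12 cKO and 42, 63.1, 66 and 44.4 CPM in wild type. The groups overlapped and the log2 fold change was 0.24 (SE 0.14, adjusted p = 0.273 by edgeR, interval -0.04 to 0.53). Maff made up 76.5 to 81% of the summed CPM per kb of the 2 genes in Suz12 cKO and 70.3 to 80.6% in wild type.

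**Figure D3:**
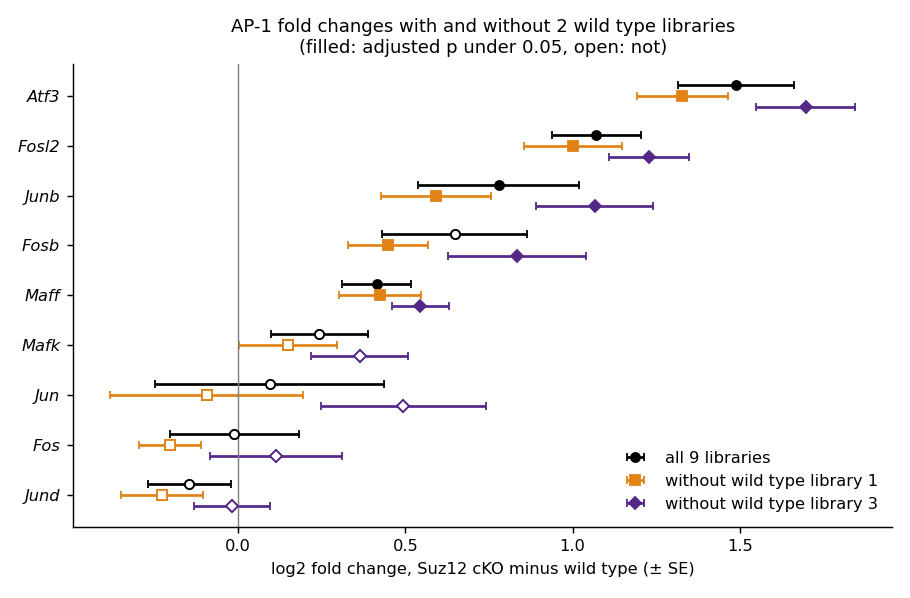
Log2 fold change of 9 members, Suz12 cKO minus wild type, with SE (horizontal axis), from all 9 libraries (black), without wild type library 1 (orange) and without wild type library 3 (purple), filled where the adjusted p was under 0.05. Fosl1, with 0 counts in wild type, is not drawn, and Fosb passes in both fits that leave out a wild type library shown here.

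In wild type libraries 1 and 3 nearly all members deviated from the group mean in 1 direction. Most did so in 2 Suz12 cKO libraries too, mostly by smaller amounts. All but Atf3 and Mafk lay above the group mean in Suz12 cKO library 2, and all but Atf3 and Maff lay below it in library 4. Wild type library 3 held the most of all 9 members that wild type expressed, and wild type library 1 the least of 8 of them, the exception being Maff, lowest in library 2. Relative to the mean of their group, on the log2 CPM scale, these members lay between -0.83 and 0.01 in wild type library 1 (median -0.61) and between 0.32 and 0.90 in library 3 (median 0.39), where the medians over all tested genes were 0.01 and -0.01. The summed level of the 10 members was 4874 to 5998 CPM in Suz12 cKO and 2471 to 5418 CPM in wild type. With group means subtracted, Pearson correlations over the 9 libraries were above 0 for all 36 pairs of the members detected in wild type, with a median of 0.64. They ran from 0.97 for Fosb with Fos to 0.07 for Maff with Fos. All pairs share the same 9 libraries and their depth, and the deviations of wild type libraries 1 and 3 are the widest for most members. Among the 5 Suz12 cKO libraries Atf3 deviated in the opposite direction to Fosl2 and to Junb in every one.

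**Figure D4:**
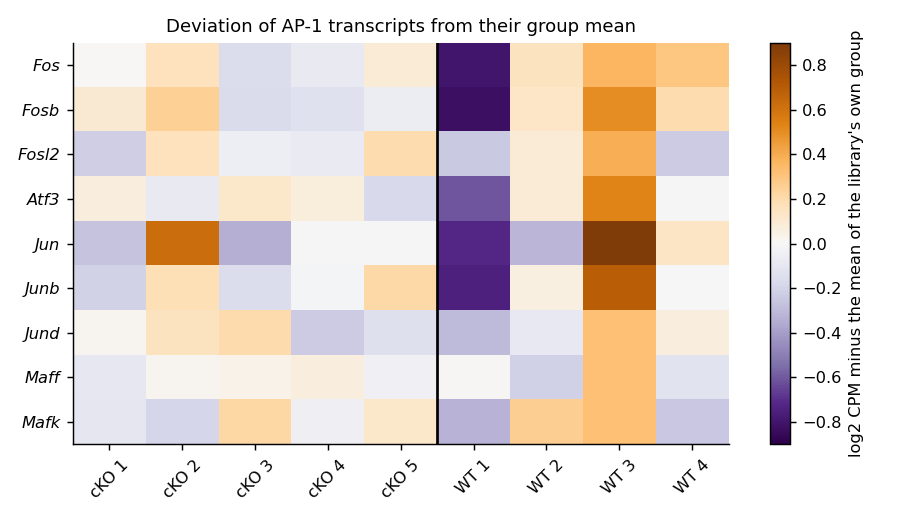
Log2 CPM of each member detected in wild type minus the mean of the library's own group, for the 5 Suz12 cKO libraries left of the line and the 4 wild type libraries right of it. Wild type library 1 is low for Fos, Fosb, Jun, Junb and Atf3, and wild type library 3 is high for all 9 genes.

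The same comparison of deviations, over 7681 other genes whose log2 CPM averaged 4 or more, gave the genes whose pattern was most like that of Fos, Jun and Atf3. For Fos these were Tango2 (r = 0.99), Dusp1, a phosphatase that switches off MAP kinases (r = 0.99), and Fam91a1 (r = 0.98). For Jun they were Ier5, an immediate early gene (r = 0.99), Zfp36, which encodes the mRNA decay factor tristetraprolin (r = 0.97), and the chemokine Cxcl2 (r = 0.97). For Atf3 they were the interferon gamma receptor chain Ifngr2 (r = 0.97), Plcl2 (r = 0.97) and Dpagt1, an enzyme of N-glycan synthesis (r = 0.96). These correlations describe 9 libraries and were not tested.

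Other immediate early genes were more often called higher than lower. Of 24 tested, 9 were higher and 2 lower, with a median log2 fold change of 0.46. That was 45.8% called, against 19.9% of all tested genes (8.97% higher and 11% lower). The cyclin Ccnl1 was at 147 ± 17.5 CPM in Suz12 cKO and 81.2 ± 8.27 CPM in wild type (log2 fold change 0.85, adjusted p = 0.000147 by edgeR), the ERK phosphatase Dusp5 at 147 ± 17.2 CPM in Suz12 cKO and 90.1 ± 11.6 CPM in wild type (0.71), and the stress gene Gadd45b at 60.8 ± 18.4 CPM in Suz12 cKO and 18.4 ± 8.34 CPM in wild type (1.74). Egr3, a zinc finger factor, had 3.63 ± 2.59 CPM in Suz12 cKO and 0 counts in wild type. Against the floor of 3 counts over the wild type group it was at least 100.6-fold higher, given as a description. The bound covers counting error only. Egr3 is among the 9 called higher, but it passed the filter on low counts only through the Suz12 cKO libraries. The 2 called lower were Dusp1, at 244 ± 25.4 CPM in Suz12 cKO and 498 ± 159 CPM in wild type (-1.03), and Rgs1 (-1.12), named after their values were seen. For both, wild type library 1 lay within the range of the Suz12 cKO libraries. Without Suz12 cKO library 5 only 1 was lower. These genes are also known to rise while tissue is dissociated for sorting, and the part of handling in the AP-1 values was not tested. Their summed level was 4202 to 5630 CPM in Suz12 cKO and 2695 to 5065 CPM in wild type, where it was again lowest in library 1 and highest in library 3. Of 9 heat shock genes 2 were higher and 1 lower (median 0.18), or 33.3% called against 19.9% of all tested genes. Hsp90aa1 (0.51) and Hsp90ab1 (0.35), chaperones, rose and Hspe1, the mitochondrial co-chaperone, fell by 0.99 on the log2 scale. After correction for gene length their log2 fold changes were 0.45, 0.32 and -0.59, and each was still called. The summed heat shock level was 3332 to 3793 CPM in Suz12 cKO and 3131 to 3664 CPM in wild type.

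Among upstream genes, 5 of 20 tested kinases of the MAP kinase cascades were higher and 1 was lower, or 30% called against 19.9% of all tested genes (median log2 fold change 0.19). The p38-activated kinase Mapkapk2 was at 233 ± 20.9 CPM in Suz12 cKO and 171 ± 11.4 CPM in wild type (0.45, SE 0.09, adjusted p = 0.00252 by edgeR), Map3k1, upstream of JNK, at 71.7 ± 2.61 CPM in Suz12 cKO and 49.7 ± 8.82 CPM in wild type (0.53), and Map3k8, the ERK-activating kinase TPL2, at 89.1 ± 5.28 CPM in Suz12 cKO and 65.5 ± 12.2 CPM in wild type (0.45). Map2k4, a JNK kinase, rose by 0.40 on the log2 scale. Without Suz12 cKO library 5 or wild type library 4 the count of higher kinases was 3, after correction for gene length it was 3 and with library totals only it was 10, and the adjusted p of Map2k4 was 0.0574 to 0.0639 without those or wild type library 1. No kinase was lower in any fit that left out a library. Of 17 factors that bind or coactivate the Fos and Jun promoters only Crem, a cyclic AMP responsive bZIP gene that also yields the repressor ICER, was called, at 15.7 ± 2.7 CPM in Suz12 cKO and 7.5 ± 1.2 CPM in wild type (1.06, SE 0.19, adjusted p = 0.00146 by edgeR). That was 5.88% of the 17, against 19.9% of all tested genes. Without wild type library 1 or 3 there were 2 called and without wild type library 2 there were 4. Of 10 genes for the turnover of FOS and JUN none was called by edgeR, with 2 higher and 1 lower at an unadjusted p under 0.05, and 1 higher by DESeq2 and 1 by voom. The most abundant was Zfp36l2, an mRNA decay factor, at 1103 ± 156 CPM in Suz12 cKO and 1170.0 ± 57.2 CPM in wild type (-0.09, adjusted p = 0.595). Without wild type library 2 there were 2 called higher, and without wild type library 3 there was 1.

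Among 14 other bZIP factors that pair or compete with the members, 3 were higher and 1 lower (median log2 fold change 0.17). That was 28.6% called, against 19.9% of all tested genes. Batf, which pairs with JUN proteins in place of FOS, fell to 34.5 ± 2.08 CPM in Suz12 cKO, against 48.5 ± 7.72 CPM in wild type (-0.49, SE 0.12, adjusted p = 0.00881 by edgeR). After correction for gene length it was not called (-0.17, adjusted p = 0.40). Bach1, a repressor that pairs with small MAF proteins, was at 180 ± 11.8 CPM in Suz12 cKO and 143 ± 20.3 CPM in wild type (0.34), and Nfe2l2, which encodes the activator NRF2, at 188 ± 10 CPM in Suz12 cKO and 155 ± 19.1 CPM in wild type (0.28). Of the 3, 1 was called without Suz12 cKO library 1, 2 or 5 and none without wild type library 1, and after correction for gene length 1 was called, neither Bach1 nor Nfe2l2. The summed level of 9 markers of interstitial macrophages and monocytes was 406 to 1910 CPM in Suz12 cKO, highest in library 3 and made up mostly of Apoe, and 96.8 to 166 CPM in wild type. Of the 9 markers 3 were called higher and 6 were not called, or 33.3% called higher against 8.97% of all tested genes. In Suz12 cKO library 3, where Apoe was highest, most of the other markers were at their lowest in that group. The part of such cells in the result was not tested.

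Textbook target genes of AP-1 were more often called higher than lower with all libraries. Of 18 tested, 5 were higher and 1 lower, with a median log2 fold change of 0.81. That was 33.3% called, against 19.9% of all tested genes (8.97% higher and 11% lower). Plaur, the urokinase receptor, was at 524 ± 82.7 CPM in Suz12 cKO and 392 ± 17.6 CPM in wild type (0.42, SE 0.10, adjusted p = 0.0103 by edgeR), and the cytokine gene Il1b at 203 ± 67 CPM in Suz12 cKO and 51.3 ± 34.8 CPM in wild type (2.0, SE 0.48, adjusted p = 0.0221). Timp1, a metalloproteinase inhibitor, was near silent at 2.46 ± 1.21 CPM in Suz12 cKO and 0.259 ± 0.375 CPM in wild type (3.39, SE 1.03). The other 2 higher genes, named after their values were seen, were Vegfa (2.78) and Spp1 (0.55). Vegfa was also low, at 5.09 ± 1.13 CPM in Suz12 cKO and 0.799 ± 1.1 CPM in wild type. Timp1 and Vegfa are among the 5 called higher, but they passed the filter on low counts only through the Suz12 cKO libraries. Cd44, the hyaluronan receptor, fell by 0.28 on the log2 scale. The counts depended on single libraries. The number of higher genes was 1 without Suz12 cKO library 2, 2 without Suz12 cKO library 4 or 5 or wild type library 1, 2 or 4, 3 without Suz12 cKO library 1 and 8 without wild type library 3, and Cd44 was not called without Suz12 cKO library 2 or 5 or wild type library 1, 2 or 4.

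Genes driven by NRF2 and small MAF proteins through antioxidant response elements were mostly higher where they changed. Of 13 tested, 5 were higher and 1 lower (median log2 fold change 0.28), or 46.2% called against 19.9% of all tested genes. The thioredoxin reductase Txnrd1 was at 221 ± 22.5 CPM in Suz12 cKO and 145 ± 17.8 CPM in wild type (0.61, SE 0.10, adjusted p = 0.00105 by edgeR), the sulfiredoxin Srxn1 at 39.1 ± 6.44 CPM in Suz12 cKO and 22.9 ± 3.24 CPM in wild type (0.77), and heme oxygenase Hmox1 at 394 ± 157 CPM in Suz12 cKO and 119 ± 11.7 CPM in wild type (1.73, SE 0.31, adjusted p = 0.00485). The peroxiredoxin Prdx1 fell to 651 ± 71.6 CPM in Suz12 cKO, against 1052 ± 150.2 CPM in wild type (-0.69). Gclm (0.58) and G6pdx (0.23), enzymes that supply glutathione and NADPH, were the other 2 higher genes and were named after their values were seen. Hmox1, Txnrd1, Srxn1 and Prdx1 kept their call in all 18 alternative fits.

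**Figure D5:**
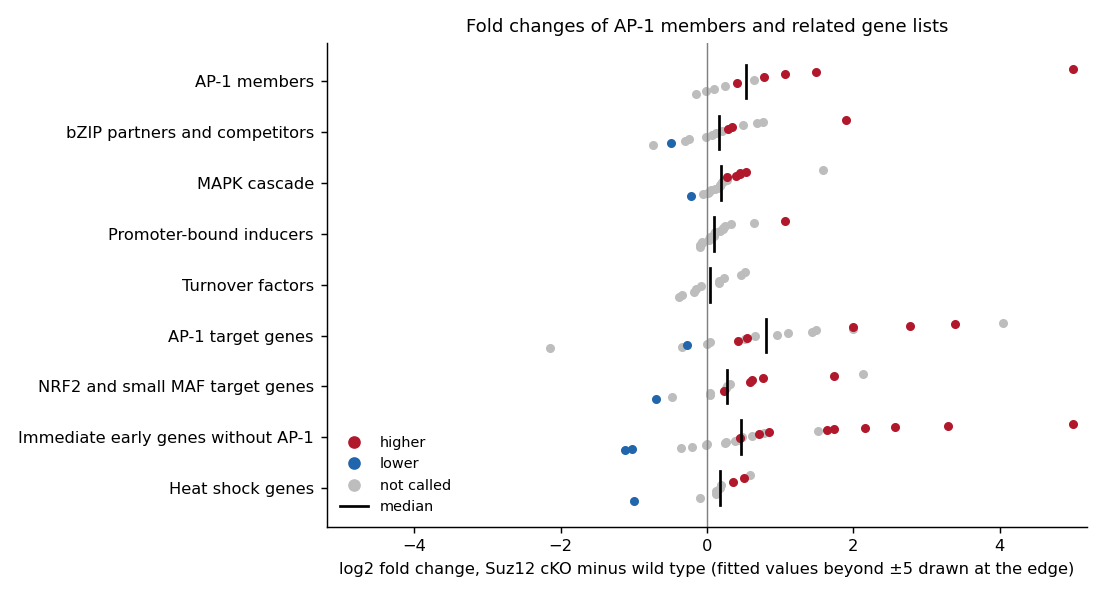
Log2 fold change, Suz12 cKO minus wild type (horizontal axis), of every tested gene in the AP-1 members and 8 related lists, red where higher, blue where lower and grey where not called, with the median as a black bar. The members and the other immediate early genes have medians of 0.53 and 0.46, and fitted values beyond 5 (Fosl1, Egr3) are drawn at the edge.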

How the data were processed

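The authors deposited whole-number read counts per Entrez gene, with gene lengths in bases, in a joint table of all 9 libraries and in 9 single tables. The single tables were equal to the joint table, which was used. Counts were made with featureCounts on mm10, per the submitters' processing notes, from TruSeq single reads of 85 bases, per the series text. No source used here gives the aligner, the versions, the annotation release or the strand setting. Symbols and coordinates came from RefSeq for GRCm38.p6, the assembly behind mm10, and 25275 of 27179 identifiers matched.

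Counts were tested with edgeR 4.0.16 in R 4.3.3 (robust quasi-likelihood fit, TMM scaling) on the 12840 genes kept by filterByExpr with the groups given, with Benjamini-Hochberg adjustment over all of them. Fold changes are Suz12 cKO minus wild type and standard errors derive from the test statistic. Log2 CPM used a prior count of 2. On simulated counts of these 12840 genes, 75% of genes changed by 1 and 27% of those changed by 0.5 on the log2 scale were recovered. The changed genes were drawn from those averaging above 1 CPM, and the spread followed the trend across genes. The rates therefore do not describe genes at lower levels or with a wider spread than the trend. DESeq2 1.42.0 and voom (limma 3.58.1) were alternatives. For the length correction, a robust loess curve (span 0.5) was fitted per library to deviations of log2 CPM against log2 length and used as an offset. Intervals and floors cover counting error or the spread between these libraries only.

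The members and gene lists were chosen with earlier results of these data known. The named genes are all members and, of each list, up to 4 called genes with the smallest adjusted p, or else the most abundant gene. A few listed genes are counted but not reported by name here. Spans of Fosl1, Map3k1, Map2k4, Crem, Timp1, Il1b, Prdx1, Txnrd1 and Hspe1 overlap another counted gene.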

Additional observations from a re-analysis of the deposited data

Results flagged for a closer look

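Jun in Suz12 cKO library 2 stood apart from its group, at 489.7 CPM against 251 to 316 CPM in the other Suz12 cKO libraries. Its gap to the nearest library was 0.728 of the group's range, above Dixon's 95% critical value of 0.71. Of the 19 groups of member values examined this was the 1 that exceeded the value, and chance gives about 1 in 20.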

How the results depend on the processing

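The count of members higher in Suz12 cKO was 4 to 6 across the 18 alternatives, with none lower. Atf3, Fosl2 and Maff were called in all of them. Fosl1 was too and is part of each count, but it had no count in wild type. It passed the filter on low counts only through the Suz12 cKO libraries, so its calls say little about stability. Fosb, not called with all libraries, passed with library totals only (0.77, adjusted p = 0.0232) and by DESeq2 (0.64), and ranged from 0.45 to 0.83 with each library left out. Junb was not called with DESeq2-style size factors in edgeR (0.77, adjusted p = 0.0541), without the filter (0.79), after the length correction (0.84), at equal depth (0.80) or with the replicate number as a block (0.81, adjusted p = 0.0907), and ranged from 0.59 to 1.07 with each library left out. Fos, near 0, changed sign with library totals only (0.11), voom (0.056), no filter (0.0026), the replicate block (0.026) and the length correction (0.0030), and ranged from -0.20 to 0.11 with each library left out. Jun ranged from -0.10 to 0.49, changing sign without Suz12 cKO library 2 or wild type library 1 or 2. The causes were not tested.

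With library totals alone, tested genes had a median of 0.15 on the log2 scale, against 0.04, and gave 1966 genes higher and 1013 lower (66% higher, against 45% of 1152 higher and 1409 lower). The replicate block gave 745 higher. Replicate numbers did not pair the libraries: same-numbered libraries deviated with correlations of 0.10, 0.08, -0.07 and 0.10, so the block result is given here only. The genes of the related lists called lower, 7 with all libraries, were 4 to 7 with each library left out, and those called higher, 30, were 20 to 35. Ranked by CPM without length, Fosl2 moved to place 4 (from 7) and Jund to place 5 (from 4). The library measures kept their direction and call with the shortest 20% of genes and, an alternative added after seeing the data, with each library left out. Fosl1, with no count in any wild type library, has a fold change that depth sets as a lower bound.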

Other observations

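Several target genes of AP-1 that did not pass the threshold, named after their values were seen, had wide spreads between libraries. Mmp12, a macrophage elastase, averaged 65.6 ± 52.4 CPM in Suz12 cKO and 291 ± 336 CPM in wild type (SD, n = 5 and n = 4, adjusted p = 0.235 by edgeR). Il6 averaged 8.25 ± 5.07 CPM in Suz12 cKO and 0.616 ± 1.23 CPM in wild type (adjusted p = 0.0868 by edgeR). Tnf averaged 73.3 ± 33.8 CPM in Suz12 cKO and 93.2 ± 95 CPM in wild type. Of the antioxidant genes, the ferritin chains Fth1 and Ftl1 had log2 fold changes of 0.03 and 0.04 (adjusted p = 0.907 and 0.784 by edgeR).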
